A study of Mus musculus with 2 samples.

Results

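Mir107, Mir103-2, Mir103-1 and Mir33 are microRNA (miRNA) genes that lie inside genes of metabolism. They were chosen by symbol in the GENCODE M21 annotation, and are 4 of the 2202 miRNA genes counted in this series. Mir107, Mir103-2 and Mir103-1 lie in Pank1, Pank2 and Pank3, which encode pantothenate kinases, and Mir33 lies in Srebf2, which encodes the sterol-sensing transcription factor SREBP-2. Small RNA was sequenced from gastrocnemius, a large calf muscle of mostly fast fibres. It came from adult female B6CASTF1/J mice, an F1 hybrid, at an age of 18 to 20 months, and the labels name no treatment. The 2 libraries form 1 group and are numbered as biological replicates 1 and 2. Both carry the same donor entry and separate tissue sample entries, so their spread may be technical, and no condition can be compared.

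A miRNA is cut from a hairpin precursor as a short strand from its 5′ side (5p arm) or 3′ side (3p arm), and it represses mRNAs that pair with its seed, bases 2 to 8. Pantothenate kinases start the synthesis of coenzyme A, the carrier of acyl groups in fatty acid and sterol metabolism, and the miR-103 and miR-107 strands are known for lowering insulin sensitivity in liver and fat. The miR-33 strand is known for repressing the cholesterol exporter Abca1 and enzymes of fatty acid oxidation, while its host SREBP-2 switches on cholesterol synthesis and uptake.

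The mature strands decide which of these genes a read can be assigned to, so they are shown before the counts. All 4 genes matched the RefSeq table (build GRCm38.p6, the mm10 assembly), with the same hairpin coordinates and sequence as in GENCODE M21. These are reference sequences, and alleles of the hybrid's other parent strain were not analysed here. Capitals mark the seed.
miR-103-3p (Mir103-1 and Mir103-2): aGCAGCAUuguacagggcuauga
miR-107-3p (Mir107): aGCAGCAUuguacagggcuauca
miR-103-1-5p: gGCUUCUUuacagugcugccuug
miR-103-2-5p: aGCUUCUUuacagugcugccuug
miR-107-5p: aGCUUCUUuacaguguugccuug
miR-33-5p (Mir33): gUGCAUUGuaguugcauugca
miR-33-3p (Mir33): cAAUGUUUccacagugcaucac

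The 3p strands of miR-103 and miR-107 share the seed GCAGCAU, which no other mature name in the table has. They differ by 1 substitution in 23 bases, G22C, written as the miR-103-3p base, its position from the 5′ end and the miR-107-3p base. The 5p strands share the seed GCUUCUU, with G1A between miR-103-1-5p and miR-103-2-5p and C16U between miR-103-2-5p and miR-107-5p. The seeds of both miR-33 strands belong to Mir33 alone in the table. The miRNAs of the Pank genes thus form 1 seed family, and Mir33 stands by itself.

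Exact sequence set a different limit for each gene. Reads that mapped to several places have a tally of their own in the files and enter no gene count. Read from the start of its 3p arm, Mir107 became distinct from every other annotated miRNA hairpin at base 22, just where G22C lies. Both Mir103 copies became distinct only at base 25, which is 2 bases past the annotated end of miR-103-3p. The whole 23-base miR-103-3p therefore cannot be assigned to either copy, and counts of Mir103-1 and Mir103-2 are lower bounds. Shorter reads of miR-107-3p also match the Mir103 copies, so the Mir107 count can be a lower bound too.

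The 5p arms were more distinct: base 10 sufficed for Mir103-1, the shortest length tried, and base 16 for Mir103-2 and Mir107. Between the Mir103 copies this rests on base 1 of the arm, hairpin base 15, where G1A lies. Stretches of 22 bases that start at hairpin bases 16 and 17 occur in both copies. For Mir33, bases 11 (5p) and 10 (3p) sufficed. Of windows of 22 bases, 61 of 66 occurred only in the Mir107 hairpin, 55 of 65 only in Mir103-2, 57 of 65 only in Mir103-1 and 48 of 48 only in Mir33. The longest run shared with another hairpin was 24 bases for Mir107, 27 bases for each Mir103 copy and 12 bases for Mir33. For comparison, 53.5% of the 2202 hairpins had every window to themselves. The rest of the genome was not searched, and how many mismatches the alignment allowed is not given in the sources used here.

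**Figure D1:**
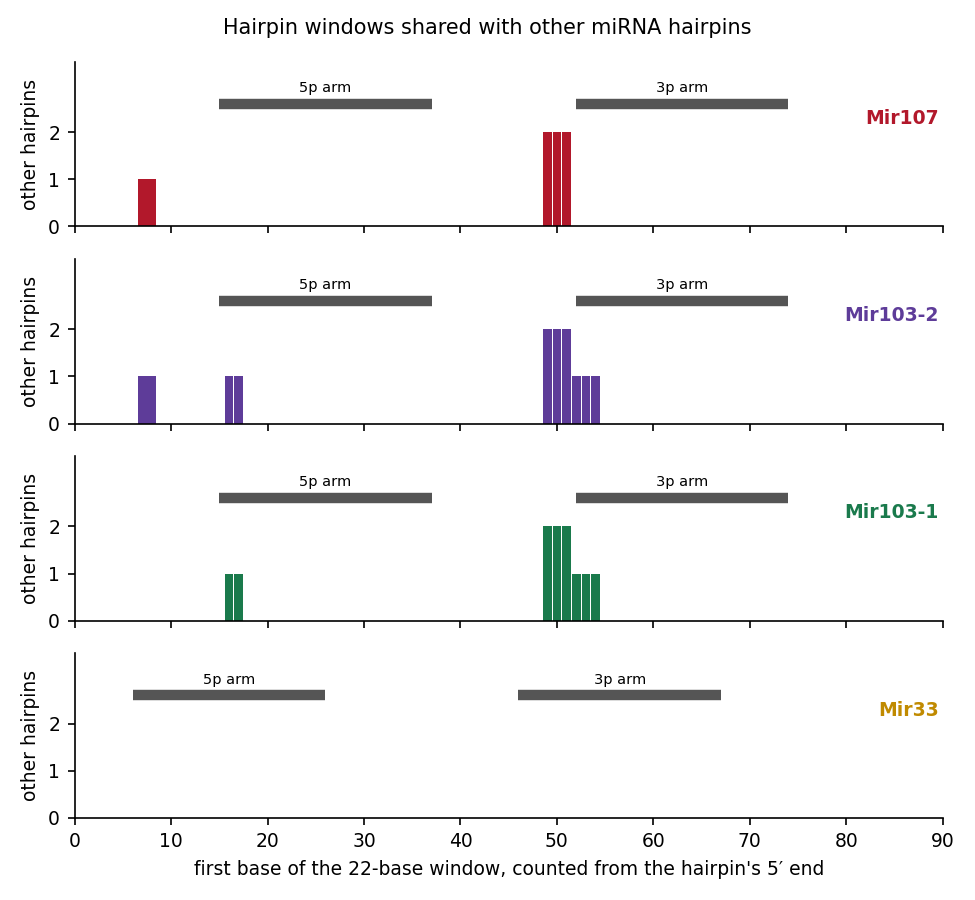
Number of other annotated miRNA hairpins (vertical axis) that hold the same 22 bases, for each window start along the hairpin (horizontal axis, bases from the 5′ end), with grey bars for the mature arms. Windows starting at bases 49 to 51 are shared by all 3 Pank hairpins, windows at 52 to 54 only by the Mir103 copies, and no window of Mir33 is shared. Windows at 7 and 8 of Mir107 and Mir103-2, and at 16 and 17 of the Mir103 copies, are each shared with 1 other hairpin.

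The 3 Pank miRNAs occupy matching positions in their hosts. Each lies on its host's strand in intron 5 of a 7-exon principal transcript. Mir107 (ENSMUSG00000065594.1, mm10 chromosome 19, 34820687 to 34820773, minus strand) begins 326 bases after exon 5 of Pank1. Mir103-2 (ENSMUSG00000065563.1, chromosome 2, 131288052 to 131288137, plus strand) begins 454 bases after that exon of Pank2, and Mir103-1 (ENSMUSG00000065553.1, chromosome 11, 35782396 to 35782481, plus strand) 688 bases after that of Pank3. The introns differ in length, with 7282 bases in Pank1, 5801 in Pank2 and 1740 in Pank3. Mir33 (ENSMUSG00000065465.1, chromosome 15, 82198122 to 82198190, plus strand) lies in intron 16 of the 19-exon principal transcript of Srebf2, 335 bases after the upstream exon. In every annotated protein-coding host transcript that spans it, each of the 4 hairpins is intronic. Host mRNAs were not measured in this assay.

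Gene counts, the sense reads assigned to miRNA genes, came to 865419 in replicate 1 and 2177048 in replicate 2, or 12.6% and 18.1% of all reads. Multimapping reads made up 80.7% and 71.0%. Levels are given as counts per 1000000 gene counts (CPM), and 1 count was worth 1.16 CPM in replicate 1 and 0.459 CPM in replicate 2. The labelled tissue was checked against its defining miRNAs: 8 of 8 striated muscle markers had counts in both libraries and together held 4.09% and 10.4% of gene counts. Mir206 made up nearly all of this (40388 and 103232 CPM), and the other 7 markers held 0.0536% and 0.123%. Of those 7, Mir208b (28.9 and 541 CPM), Mir499 (153 and 416 CPM), Mir133b, Mir133a-1 and Mir133a-2 stood higher in replicate 2. Mir1a-2, the highest of the 7 in replicate 1 (270 and 162 CPM), and Mir1a-1 stood lower in replicate 2. Mir1a-1 and Mir1a-2 are copies by name, as are Mir133a-1 and Mir133a-2. Reads that fit both copies of a pair enter no gene count, so these low values do not measure the mature strands of the copied genes. The liver miRNA Mir122 stood at 10.4 and 95.1 CPM, and of 6 neural marker genes 1 had counts in replicate 1 and 2 in replicate 2. Fewer cells of a type and less RNA per cell cannot be told apart in such bulk tissue.

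Of the 4 genes, Mir107 alone had more than 22 counts in a library. It had 223 counts in replicate 1 and 771 in replicate 2, or 258 CPM (exact Poisson interval at 95% 225 to 294) and 354 CPM (330 to 380). Its mean of 306 ± 68.2 CPM (SD, n = 2) placed it at rank 96 of all 2202 miRNA genes, and at rank 104 and 96 in the single libraries. Poisson intervals cover counting error only, and they treat each read as separate although no molecular identifiers mark the molecules behind the reads.

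Mir103-2 had 9 and 22 counts, or 10.4 CPM (4.76 to 19.7) and 10.1 CPM (6.33 to 15.3). The mean of 10.3 ± 0.208 CPM (SD, n = 2) put it at rank 277, and its intervals in the libraries overlapped widely. Mir103-1, the copy in Pank3 with the same 3p strand, had 0 counts in replicate 1 and 2 counts in replicate 2. A count of 0 was given a floor of 3 counts, which is 3.47 CPM in replicate 1 (the exact Poisson upper limit, a wider one, is 3.69 counts or 4.26 CPM), and the 2 counts are 0.919 CPM (0.111 to 3.32). At this depth, unique reads of Mir103-1 were at or under the limit in both libraries, and any reads of the shared miR-103-3p are not in these values.

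Mir33 was close to the detection limit although its sequence is distinct from all other hairpins. It had 4 counts in replicate 1 and 7 in replicate 2, or 4.62 CPM (1.26 to 11.8) and 3.22 CPM (1.29 to 6.62), with a mean of 3.92 ± 0.995 CPM (SD, n = 2) at rank 330. None of the 4 genes had a single antisense count in either library, and their unstranded counts equalled the sense counts.

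**Figure D2:**
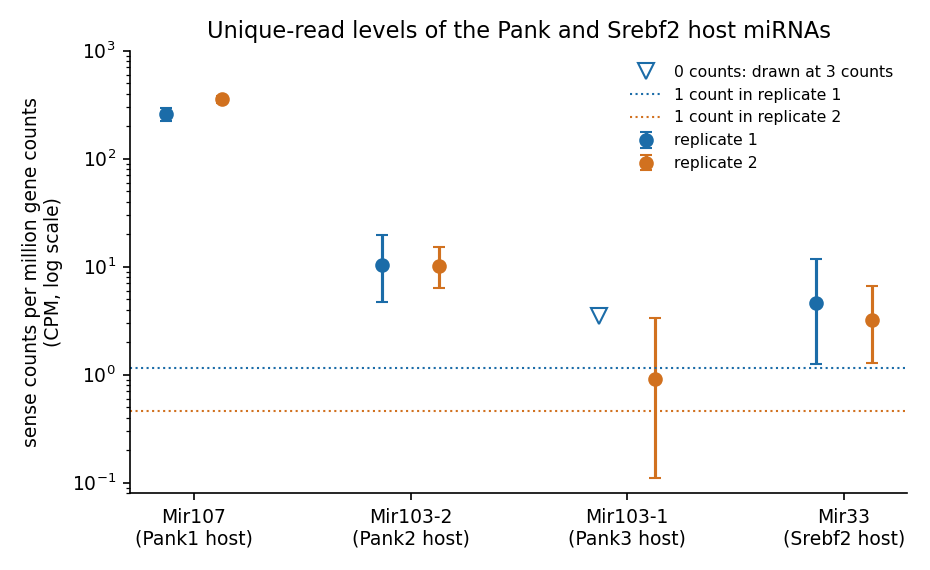
Level of each gene (vertical axis, CPM, log scale) in replicate 1 (blue) and replicate 2 (orange), with exact Poisson intervals at 95%, dotted lines at the value of 1 count, and an open triangle at 3 counts where none was found. Mir107 sits at 258 and 354 CPM, above the intervals of the other genes, while Mir103-2 and Mir33 overlap.

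The order by unique counts was Mir107, Mir103-2, Mir33 and Mir103-1 in both libraries. Per base of hairpin, which is 69 bases long in Mir33 and 86 or 87 in the others, the order was the same. Mir107 exceeded Mir103-2 by 24.8 to 1 in replicate 1 (exact interval 12.8 to 54.9) and 35.0 to 1 in replicate 2 (23.0 to 56.3). The difference between Mir107 and the next gene is therefore larger than counting error in each library, whereas the limit on miR-103-3p reads means that it does not measure how much of each mature strand was present. Mir103-2 and Mir33 stood at 2.25 to 1 (0.628 to 9.999) and 3.14 to 1 (1.30 to 8.71), so the interval of the ratio held 1 in replicate 1 and lay above 1 in replicate 2. The Poisson intervals of Mir33 and Mir103-1 overlapped in both libraries.

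Against Mir33, Mir107 stood at 55.8 to 1 (21.5 to 206) and 110 to 1 (53.2 to 275). Against the floor of 3 counts for Mir103-1 in replicate 1, Mir107 stood at 74.3 to 1, a value that leaves out the counting error of both genes. In replicate 2, Mir107 stood at 386 to 1 against Mir103-1 (106 to 3189). Full-length reads of the shared miR-103-3p are in neither value. Mir107 held 94.5% (exact Clopper-Pearson interval 90.8 to 97.0) of the 236 counts of these genes in replicate 1 and 96.1% (94.6 to 97.4) of the 802 counts in replicate 2. None of the 6 pairwise proportions differed detectably between the libraries, with a lowest unadjusted p of 0.281 and an adjusted p of 1 for every pair (two-sided Fisher's exact test, Benjamini-Hochberg over 6 pairs). At counts this low, large shifts in the rarer genes could pass unseen.

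Between the libraries, Mir107 went from 258 to 354 CPM, a ratio of 1.37 (exact interval 1.18 to 1.60) or a log2 ratio of 0.46 toward replicate 2. The exact binomial test on the split of its counts gave an adjusted p of 4.29e-05 (Benjamini-Hochberg over the 305 genes that averaged 10 or more counts). A call also needed a ratio of 2 or more in either direction beside an adjusted p under 0.05, so Mir107 was not called. This test compares 2 libraries and their counting error. Of the tested genes, 33.8% were called, with 26.9% toward replicate 2 and 6.89% toward replicate 1. Of the 4 genes here, 2 passed the count minimum and 0 were called, and 1 of these 2, Mir107, passed the adjusted p without the ratio threshold, which 67.9% of tested genes did.

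The ratio of Mir107 lay close to that of the median gene. The median tested gene was 1.35-fold higher in replicate 2 (log2 ratio 0.43, SD across genes 1.25, n = 305), and 157 of 305 genes had a lower log2 ratio than Mir107. With TMM scaling, which lowers each log2 ratio by 0.28, Mir107 stood at 0.18 (adjusted p = 0.159 by the binomial test), and with DESeq2 size factors, which lower it by 0.42, at 0.04 (adjusted p = 0.80 by the same test). These scalings called 32.1% and 31.8% of tested genes, and neither called any of the 4 genes here. Of their calls, 67.3% and 59.8% were toward replicate 2, against 79.6% with library totals. Of the 8 striated muscle markers, 7 were tested, Mir206 among them. Toward replicate 2, 3 of these markers were called with library totals and with TMM, and 2 with DESeq2 size factors. Toward replicate 1, 0 were called with library totals and 1, Mir1a-2, with either scaling.

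Mir103-2 did not differ detectably. Its ratio of replicate 2 over replicate 1 was 0.972 (0.430 to 2.40, log2 ratio -0.04, adjusted p = 1 by the exact binomial test), an interval that still holds a change of 2-fold either way. Mir33 and Mir103-1 had means of 5.5 and 1 counts and were not tested. The ratio of Mir33 was 0.696 (0.177 to 3.24, log2 ratio -0.52), and no ratio is given for Mir103-1, which lay at or under the limit in both libraries.

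**Figure D3:**
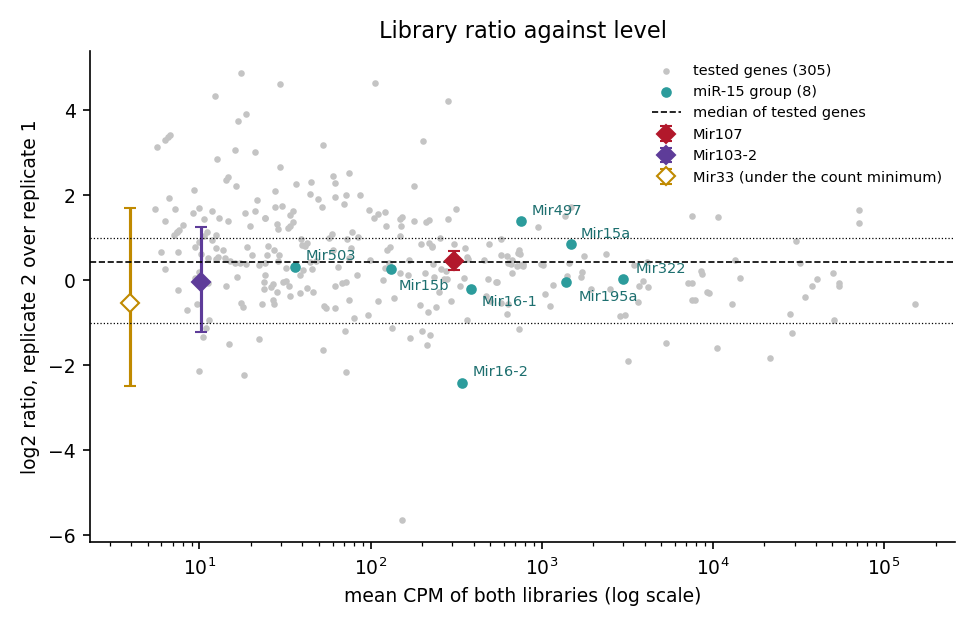
Log2 ratio of replicate 2 over replicate 1 (vertical axis) against mean CPM (horizontal axis, log scale) for the 305 tested genes (grey), the miR-15 group (teal) and Mir107, Mir103-2 and Mir33 with exact intervals. Mir107, at 0.46, lies beside the dashed median of 0.43, the intervals of Mir103-2 and Mir33 cross 0, and dotted lines mark the 2-fold threshold.

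The genes nearest in level or ratio had no host in common with these genes. By mean CPM, Mir107 fell between Mirlet7c-1 at 309 ± 124 CPM and Mir379 of the imprinted Dlk1-Dio3 cluster at 295 ± 70.9 CPM (SD, n = 2 each), both within 1 SD of it. Nearest to Mir107 in log2 ratio over the 2 libraries were Mir133b and Mir8114, each at 0.46. Mir103-2 lay between Mir199a-2 at 10.5 ± 6.40 CPM and Mir362 at 10.2 ± 3.05 CPM. Mir182 and Mir7-1 had the same log2 ratio as Mir103-2, -0.04. With 2 libraries, such likeness is a match of a single ratio.

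These genes were also ranked among the other miRNAs inside protein-coding genes. The annotation places 776 miRNA genes in introns of protein-coding genes on the same strand, of which 284 had counts in either library and 117 were tested. Mir107 ranked 44 among the 776 by mean CPM, 2.45 times the median of 125 CPM of the tested ones. Mir103-2, the other tested member, lay below that median and ranked 106 among the 776, Mir33 ranked 127 and Mir103-1 ranked 255. Of the 117, 24 were called toward replicate 2, 9 toward replicate 1, and the other 84 did not pass. Their 28.2% called is near the 33.8% of all tested genes, and their median log2 ratio was 0.36 against 0.43.

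The miR-103 and miR-107 3p strands also belong to a wider group of miRNAs, called here the miR-15 group, which shares the bases AGCAGC at the 5′ end. The list of genes behind the levels and calls differs from those with the motif, the Pank miRNAs aside, at 4 genes: it holds Mir497b, whose annotated strand lacks the motif, and leaves out Mir6342, Mir6353 and Mir6419, which hold it and had 0 counts in both libraries. The motif was looked for on the mature strand within its first 8 bases, and 13 of 1679 mature names (0.774%) hold it. Capitals mark it in 4 strands from genes with counts here, set beside miR-107-3p to show the offset of 1 base.
miR-107-3p: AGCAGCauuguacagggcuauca
miR-322-5p: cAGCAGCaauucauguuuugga
miR-15a-5p: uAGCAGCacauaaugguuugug
miR-16-5p (Mir16-1 and Mir16-2): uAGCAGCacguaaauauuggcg
miR-497a-5p: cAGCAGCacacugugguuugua

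In miR-107-3p and miR-103-3p the motif starts at base 1, and in the other 11 names it starts at base 2, so that the seed of bases 2 to 8 differs. The group without the Pank miRNAs, whose best known role is in restraining the cell cycle, had more gene counts than the Pank miRNAs. Its 10 listed genes held 6993 and 8046 CPM, led by Mir322 (2962 and 3025 CPM), Mir15a (1050 and 1898), Mir195a (1418 and 1374) and Mir497 (419 and 1099). The Pank miRNAs made up 3.69% (exact Clopper-Pearson interval 3.24 to 4.19) and 4.34% (4.05 to 4.65) of the counts of both sets together. Both sets lack reads that fit several genes, such as full-length miR-103-3p and miR-16-5p. The share therefore describes uniquely assigned reads and does not measure the mature strands.

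Of the 10 listed genes of the group, 8 were tested, with 1 call in each direction and 6 genes that did not pass. The share of 25% called is under the 33.8% of all tested genes, and the median log2 ratio was 0.15 against 0.43. Mir497 exceeded its replicate 1 level 2.62-fold in replicate 2 (2.34 to 2.93) and did not pass with DESeq2 size factors. Mir16-2, which like the Mir103 genes shares its mature strand with a copy elsewhere, was 5.32-fold higher in replicate 1 (4.55 to 6.23). Its copy Mir16-1, with 358 and 779 counts or 414 and 358 CPM, was 1.16-fold higher in replicate 1 (1.02 to 1.31) and was not called. Mir195b and Mir497b had 0 counts in both libraries.

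MiRNAs known for acting on cholesterol and lipid transport, the field of Mir33, were mostly far above it. Of 24 listed genes, 20 had counts in replicate 1 and 22 in replicate 2. The most abundant were Mir26b (40813 and 17195 CPM), Mir10b (33546 and 9434), Mir27b (7351 and 7050) and Mir145a (7854 and 2842), the last a miRNA of smooth muscle. Of 19 tested genes, 6 were called toward replicate 1, which is 31.6% against 6.89% of all tested genes, 3 toward replicate 2 (15.8% against 26.9%), and 10 did not pass. All calls together were 47.4% of the list against 33.8%. The former were Mir26b, Mir10b, Mir145a, Mir26a-1, Mir26a-2 and Mir223, and the latter Mir106b, Mir128-2 and Mir122. Mir26a-1 and Mir26a-2 are copies, and Mir26b is of their family, so these calls are not independent of each other. Mir128-2 is likewise a copy by name of Mir128-1, which was not called (558 and 908 CPM). Reads that fit both copies of a pair enter no gene count, so calls of copied genes do not measure their mature strands. The smooth muscle markers Mir143 and Mir145a summed to 75404 and 37985 CPM in replicates 1 and 2. The leukocyte markers, Mir223 among them, summed to 4097 and 4575 CPM, but they split. Mir223 (278 and 123 CPM) and Mir142 (246 and 96.0 CPM) were called higher in replicate 1. Mir155 stood higher in replicate 2, with a ratio of 1.48 (1.39 to 1.58). Mir150 and Mir146 had ratios of 1.05 (0.988 to 1.12) and 1.02 (0.913 to 1.15), intervals that hold 1. Neither they nor Mir155 were called. The part of either cell type in the calls of this list was not tested. TMM and DESeq2 size factors also called 6 and 3 of the list, while the share of all tested genes called toward replicate 1 rose to 10.5% with TMM and 12.8% with DESeq2 size factors. Across the list, the median log2 ratio was -0.06 against 0.43 for all tested genes.

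Mir96, Mir19b-1, Mir758, Mir301b and Mir19b-2 fell under the count minimum, as Mir33 did, with at most 2 counts in a library. Mir122 had 9 and 207 counts, a ratio of 9.14 (4.72 to 20.3) toward replicate 2, while Mir33, which is also well known from liver, had 4 and 7.

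The list of insulin and glucose miRNAs, the field of miR-103 and miR-107, had few calls between the libraries. Of 15 listed genes, 12 were tested, 1 was called and 11 were not, so 8.33% were called against 33.8% of all tested genes. The called gene was Mir29b-1, 2.14-fold higher in replicate 2 (1.47 to 3.21). Neither TMM nor DESeq2 size factors kept that call, and with either of them 2 others of the 12, Mir143 and Mir29c, were called higher in replicate 1. Of all tested genes, 10.5% were called in that direction with TMM and 12.8% with DESeq2 size factors. Mir378a (181375 and 123976 CPM), Mir143 (67550 and 35143), Mir126a (47279 and 52968) and Mir29a (14193 and 14792) led the list by level, all far above Mir107. The median log2 ratio was 0.09. Mir802 had 0 counts in both libraries.

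**Figure D4:**
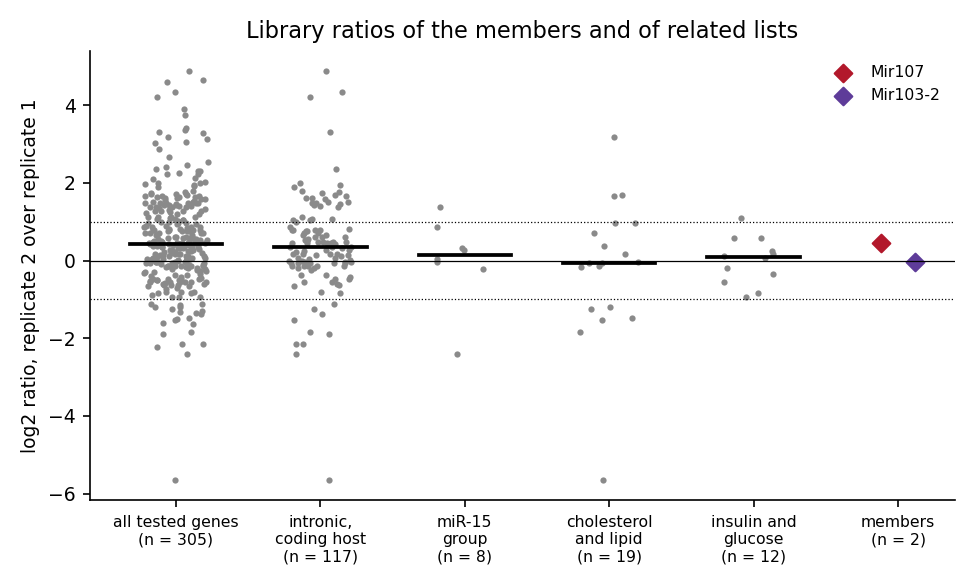
Log2 ratio of replicate 2 over replicate 1 (vertical axis) for all tested genes, intronic miRNAs of protein-coding hosts and the 3 lists, each point 1 gene and each bar the median, beside Mir107 and Mir103-2. Medians run from -0.06 for cholesterol and lipid to 0.43 for all tested genes, and both members lie inside the dotted 2-fold lines.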

How the data were processed

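Per the deposited README, the authors' files hold raw counts of reads per miRNA gene on mm10 with GENCODE M21. Which aligner, counter and trimming were used is not given in the sources used here. Of the 3 count columns without a header, the sense column (column 3) was used, and the 4 tallies entered neither totals nor tests. The 305 genes that averaged 10 or more counts were compared across libraries with an exact binomial test (two-sided), conditional on each gene's summed count and adjusted by Benjamini-Hochberg, since 1 group gives edgeR no contrast. The test was checked on simulated Poisson counts, which carry counting error only, so the check does not cover other spread between libraries. Scaling alternatives came from edgeR 4.0.16 (TMM) and DESeq2 1.42.0 in R 4.3.3; other calculations used Python 3.11.15 and SciPy 1.17.1. Hairpins were taken from GENCODE M21 transcripts and mature strands from RefSeq. The members and lists were chosen with earlier results of these data known. Named genes are the members, their neighbours by mean CPM and by log2 ratio, and, per list, the 4 highest and all called genes; Mir16-1, genes called only with other scalings and genes with few or no counts were added after their values were seen.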

Additional observations from a re-analysis of the deposited data

How the results depend on the processing

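The levels moved with the total used. With the unstranded column, Mir107, Mir103-2 and Mir33 stood at 396, 13.4 and 5.13 CPM, and per 1000000 of all reads at 48.3, 1.57 and 0.582. Without the most abundant gene, the same genes stood at 360, 12.1 and 4.66 CPM. With all reads as the total, the log2 ratios of Mir103-2 and Mir33 turned to 0.49 and 0.0065, neither of them called. That of Mir107 stayed between 0.04 and 0.99, and it passed only without a ratio threshold, at 0.46. A minimum of 100 counts left Mir103-2 untested. Against 103 called genes, that minimum gave 50 and no ratio threshold 207. Those higher in replicate 2 (82) became 138 with all reads as the total, 37 with that minimum and 143 with no ratio threshold. Those higher in replicate 1 (21) became 32 with TMM, 39 with DESeq2 size factors, 9 with all reads, 13 with that minimum and 64 with no ratio threshold. The miR-15 group had 1 call with DESeq2 size factors, and the insulin and glucose list 2 with either scaling. Leaving out either library moved no level or share by more than 1 SD, which 2 libraries cannot exceed. Depth limits Mir103-1, Mir103-2 and Mir33 to 22 counts or fewer in a library.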
